A study of Mus musculus with 9 samples.

Results

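TOM+ cDC2 and TOM- DC2 are conventional type 2 dendritic cells of the spleen that carry or lack a record of past expression of *Clec9a*, a gene of dendritic cell progenitors. The comparison was set by the sample labels and used 6 of the 9 libraries of the series, 3 of young TOM+ cDC2 and 3 of young TOM- DC2. All 6 came from 8-day-old C57BL/6 mice of the genotype *Clec9a*-Cre/Cre *Rosa*-tdTomato/tdTomato. In these mice Cre is driven from both copies of the *Clec9a* locus, and cells that have made Cre, and their progeny, make the red fluorescent protein TOMATO from the *Rosa26* locus. The sort kept viable singlets without autofluorescence that carried MHCII, CD11c and CD11b on their surface, and TOMATO fluorescence separated the 2 groups. Each young sample came from pooled spleens. The other 3 libraries, TOM+ cDC2 from adults aged 8 or 9 weeks with the same genotype and gate, are given here as a point of reference. The question asked of the comparison was whether cells of one phenotype but different origin differ in the genes they transcribe.

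Dendritic cells present antigen to T cells. Conventional type 2 cells express SIRPα and CD11b, depend on the growth factor receptor FLT3 and mainly instruct CD4+ T cells. Group 3 innate lymphoid cells (ILC3) are lymphocytes without antigen receptors that guard mucosal surfaces and respond to IL-1 and IL-23, and some antigen-presenting cells share genes with them.

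Reads counted on genes ranged from 14270110 to 22809401 over the 6 young libraries, and 14512 to 15057 genes had at least 1 read. Each library carries a number, 81, 91 or 92, that occurs once in each young group, and values are given below in that order. Levels are given as TPM, the abundance of a gene's transcripts corrected for gene length and library size. The TOM- DC2 library numbered 81 stood apart by genes of neutrophil granules and haemoglobins, with *Ngp* at 149 counts against 0 or 1 in the other 5.

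The labelled cell type was checked first. In such sorted pools, fewer cells expressing a gene and less of its RNA per cell cannot be told apart. *Sirpa*, which encodes SIRPα, was at 862, 720 and 676 TPM in TOM+ cDC2 and at 775, 638 and 652 TPM in TOM- DC2. *Itgam* (CD11b) was at 168, 126 and 146 TPM and at 166, 128 and 146 TPM, and *Flt3* at 187, 173 and 209 TPM and at 189, 154 and 188 TPM. The 2 groups overlapped for each of these 3 genes, although *Sirpa* was higher in the TOM+ library of each number (edgeR adjusted p = 0.61, and 0.0027 with the number as a block, as described below). *Itgax* (CD11c) was at 390, 343 and 349 TPM and at 359, 301 and 345 TPM, and it was not called (edgeR adjusted p = 0.69, and 0.031 with the block). Of 22 genes of cDC2 identity that were tested, 0 were called, 10 had estimates higher in TOM+ cDC2 and 12 higher in TOM- DC2, and the median log2 fold change (TOM- DC2 minus TOM+ cDC2, as for every positive value below) was 0.03. At an unadjusted p under 0.05, 6 of the 22 passed by edgeR, and DESeq2 with apeglm and limma on TPM called 0. With the block 9 of the 22 (40.9%) passed the adjusted p as higher in TOM- DC2 and 8 (36.4%) as higher in TOM+ cDC2. Over all tested genes 6.71% and 5.12% did, and 0 of the 22 reached the fold. *Cd209a*, a C-type lectin gene, was at 198, 234 and 230 TPM in TOM+ cDC2 and at 156, 181 and 146 TPM in TOM- DC2 (edgeR adjusted p = 0.43, and 8.7e-07 with the block). Without the block 1 of the 22, *Ltb*, which encodes lymphotoxin β, passed the adjusted p without reaching the fold. It was at 429, 368 and 348 TPM in TOM+ cDC2 and at 597, 522 and 556 TPM in TOM- DC2 (log2 fold change 0.52 ± 0.09, SE, edgeR adjusted p = 0.0087). *Clec9a* itself had 2 to 7 counts in every young library. Both copies of its locus carry Cre in these mice, and the study states that they lack its functional protein, DNGR-1. These counts therefore cannot check the cell type.

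The reporter locus followed the sort. *Gt(ROSA)26Sor*, the non-coding transcript of the locus that holds the reporter (chr6:113067428-113077244, GRCm38), was at 22.2, 21.4 and 23.6 TPM in TOM+ cDC2 and at 54.9, 64.0 and 50.3 TPM in TOM- DC2. All 3 TOM- libraries lay above all 3 TOM+ libraries, and the difference was 1.18 ± 0.13 on the log2 scale (edgeR adjusted p = 0.00037). Adult TOM+ cDC2 had 29.1, 21.1 and 23.9 TPM, near the young TOM+ level. The gene overlaps *Thumpd3* by 851 bases.

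The called genes were mainly low or absent in TOM+ cDC2 and present at modest levels in TOM- DC2. Of 14452 genes tested, 170 (1.18%) were called, meaning an adjusted p under 0.05 and a log2 fold change over 1 in size (edgeR quasi-likelihood test). TOM- DC2 was the higher group for 167 of them, 1.16% of all tested, and TOM+ cDC2 for 3, 0.0208%. The 167 had a median level of 3.65 TPM in TOM- DC2, where the median over all tested genes was 12.0 TPM. In TOM+ cDC2, 93 of the 167 averaged under 0.5 TPM. Differences were over 5 on the log2 scale for 32 genes, over 3 and up to 5 for 50, over 2 and up to 3 for 29, and up to 2 for 56. The median log2 fold change over all tested genes was 0.00, and 49.7% of the estimates were higher in TOM- DC2. Nothing in the labels says that the 3 libraries of a group came from separate litters, so p-values measure the spread between these pooled samples.

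**Figure D1:**
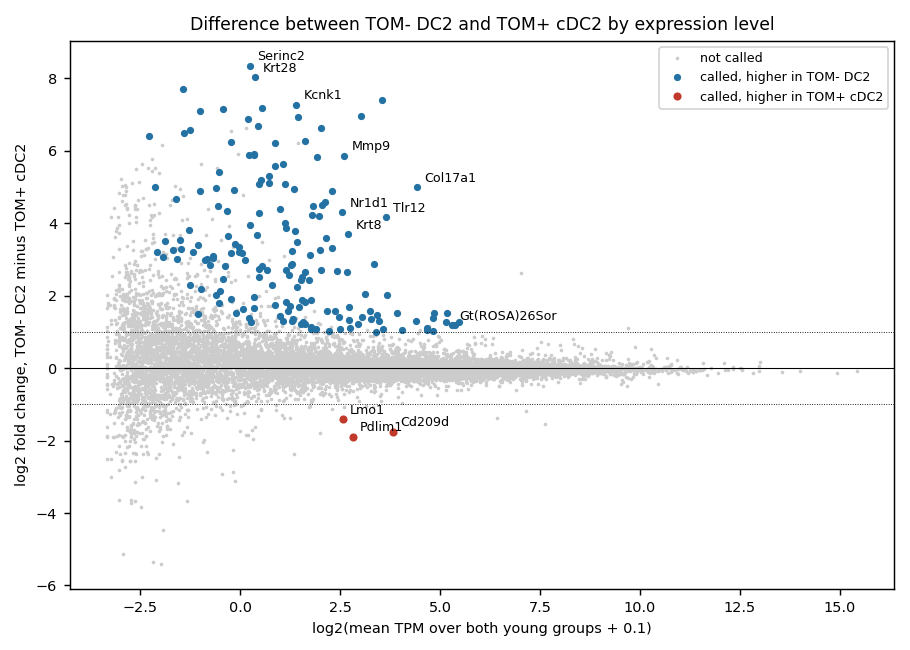
Each point is 1 of 14452 tested genes, with the log2 mean TPM over the 6 young libraries (plus 0.1) on the x axis and the log2 fold change, TOM- DC2 minus TOM+ cDC2, on the y axis. Blue points are the 167 genes called higher in TOM- DC2, red points the 3 called higher in TOM+ cDC2, and dotted lines mark a log2 fold change of 1 in either direction; called genes lie almost all above the upper line and at low to middle levels.

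Libraries with the same number deviated together from their group means, and a fit of the 6 young libraries with the number as a block called 341 genes. Of these, 315 (2.15% of 14654 tested) were higher in TOM- DC2 and 26 (0.177%) in TOM+ cDC2. All 170 genes called without the block were called with it. Without regard to fold, 984 genes (6.71%) passed the adjusted p with the block as higher in TOM- DC2 and 751 (5.12%) as higher in TOM+ cDC2, where without the block 213 and 18 did. Normalized counts of the 2 groups did not overlap for 2401 of the 14452 genes (16.6%).

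Genes associated with ILC3 formed the list with the most calls after the 28 genes labelled in the study's own plots, of which 24 were called higher in TOM- DC2 and 2 in TOM+ cDC2. The study chose those 28 on these samples, so their count is not independent evidence. Of 34 ILC3-associated genes 32 were tested, and all 32 had estimates higher in TOM- DC2 with a median of 1.08. Of the 32, 12 (37.5%) were called, where 1.18% of all tested genes were, and 13 with the block. The called ILC3-associated genes named below are all among the 28 labelled by the study, so this count is not independent evidence either. The IL-1 receptor gene *Il1r1* had 0.15, 0.31 and 0.26 TPM in TOM+ cDC2 and 3.57, 4.02 and 4.15 TPM in TOM- DC2, a difference of 3.997 ± 0.26 on the log2 scale (edgeR adjusted p = 7.4e-06). *Il17re*, which encodes a receptor subunit for IL-17C, had 0.24, 0 and 0.06 TPM against 3.91, 3.83 and 4.44 TPM (5.07 ± 0.55, edgeR adjusted p = 0.00026). *Gata3*, a transcription factor of T cells and innate lymphoid cells, had 0.26, 0.16 and 0.11 TPM against 2.27, 2.12 and 2.52 TPM (3.67 ± 0.31, edgeR adjusted p = 6.1e-05). The groups were far apart for all 3 genes, and adult TOM+ cDC2 had at most 0.46 TPM of any of them.

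*Tnfsf11*, which encodes the TNF family ligand RANKL, was less even. It had 0, 0.09 and 0.11 TPM in TOM+ cDC2 and 1.26, 4.86 and 4.08 TPM in TOM- DC2 (5.59 ± 0.78, edgeR adjusted p = 0.0037), so the TOM- library numbered 81 was the lowest of its group while still above every TOM+ library. *Lingo4*, a leucine-rich repeat membrane protein gene, had 0.12, 0 and 0.09 TPM against 6.83, 4.23 and 6.52 TPM (6.28 ± 0.45, edgeR adjusted p = 6.1e-05). Cytokine receptor genes *Il2rb* (0.03 to 0.15 TPM against 2.13 to 2.96 TPM) and *Il18r1* (0.17 to 0.24 TPM against 1.01 to 2.42 TPM) and the inhibitory receptor gene *Klrg1* (0 to 0.15 TPM against 1.88 to 3.28 TPM) were called as well.

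Other ILC3-associated genes were well expressed in both groups and differed less. *Tcf7*, which encodes the transcription factor TCF1, was at 18.0, 13.8 and 13.5 TPM in TOM+ cDC2 and at 49.6, 30.9 and 42.4 TPM in TOM- DC2 (1.39 ± 0.17, edgeR adjusted p = 0.00062). The chemokine receptor gene *Ccr6* was at 34.6, 16.6 and 23.2 TPM against 76.7, 41.2 and 55.0 TPM (1.18 ± 0.23, edgeR adjusted p = 0.02), and the 2 groups did not overlap, although the highest TOM+ library and the lowest TOM- library were close. *Lta*, which encodes lymphotoxin α, was at 3.97 to 5.54 TPM against 9.03 to 12.1 TPM (1.21 ± 0.21, edgeR adjusted p = 0.0093). *Ccr6* and *Lta* lost their calls when 1 library was left out: *Ccr6* without TOM+ number 91 or 92 or TOM- number 81 or 92, and *Lta* without TOM+ number 91 or 92. Adult TOM+ cDC2 had these 3 genes at levels like those of TOM- DC2 or above, with *Tcf7* at 53.0, 57.1 and 79.9 TPM and *Ccr6* at 48.0, 68.2 and 55.6 TPM.

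Some defining genes of ILC3 effector function were at or near 0, while *Ltb*, *Lta* and *Tnfsf11*, given above, were expressed in TOM- DC2. *Il17f* had 2, 0 and 4 counts in TOM+ cDC2 and 5, 21 and 19 in TOM- DC2. *Il22* and *Il17a* had 0 reads in all 6 young libraries, *Il23r* had 0 counts in each TOM+ library and 3, 2 and 1 in TOM- DC2, and *Thy1*, which encodes the surface protein CD90, had 0 to 4 counts in any of them. *Il7r*, which encodes CD127, was at 3.28, 3.63 and 2.89 TPM in TOM+ cDC2 and at 5.61, 4.79 and 5.17 TPM in TOM- DC2. These groups did not overlap, yet the difference of 0.61 ± 0.17 was below the fold and did not pass without the block (edgeR adjusted p = 0.12, and 0.0025 with it). *Kit* was at 177, 145 and 184 TPM in TOM+ cDC2 and at 233, 187 and 250 TPM in TOM- DC2. *Id2* was at 483, 336 and 316 TPM and at 640, 448 and 423 TPM. Both were higher in the TOM- library of each number, and neither was called.

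**Figure D2:**
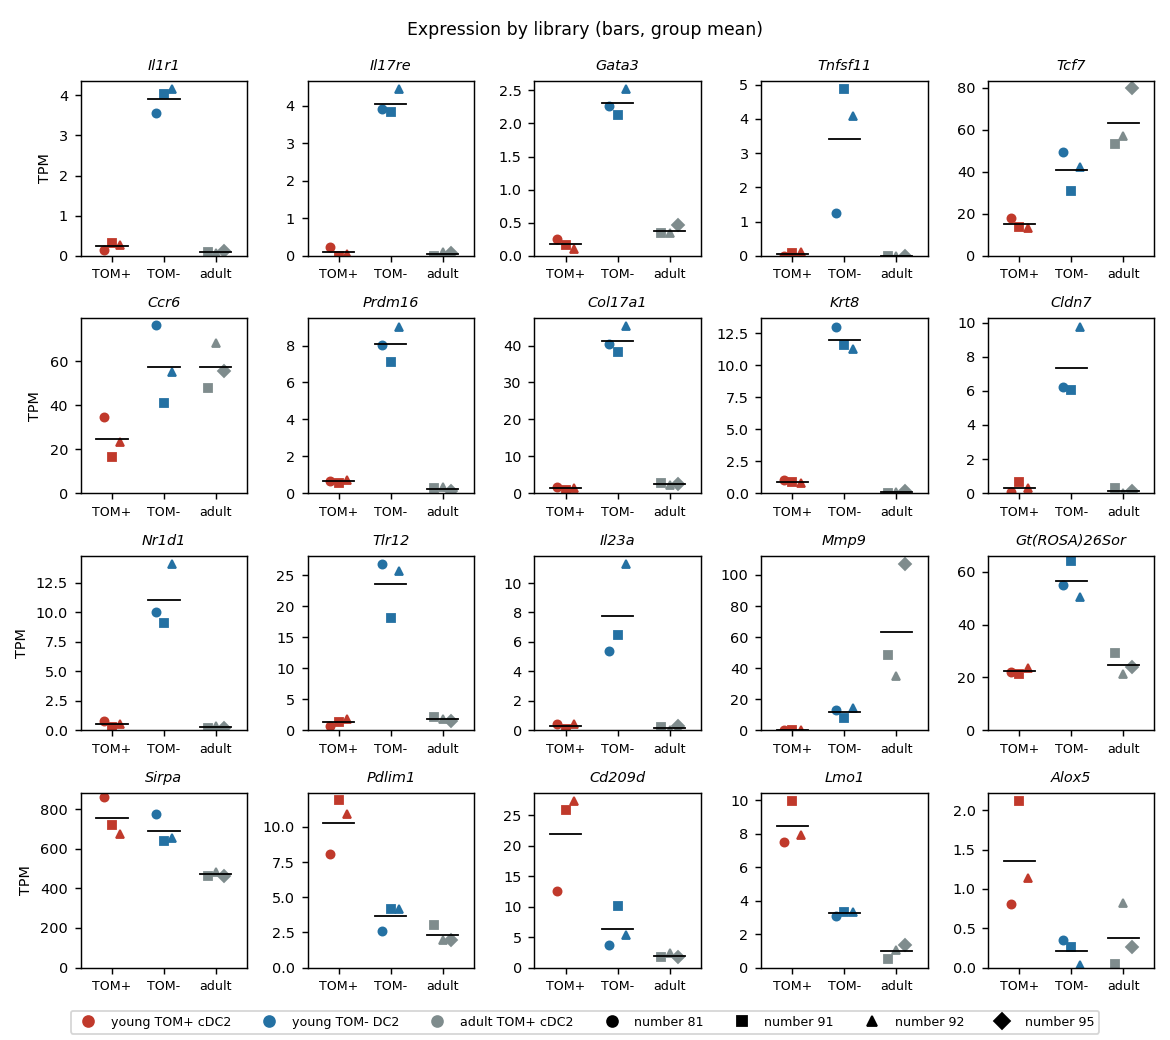
TPM of 20 genes on the y axis (linear, from 0) in each library, with the groups young TOM+ cDC2, young TOM- DC2 and adult TOM+ cDC2 on the x axis, marker shape giving the number of the library and horizontal bars the mean of 3 libraries. *Il1r1*, *Prdm16*, *Col17a1* and *Krt8* are near 0 outside TOM- DC2, *Tcf7*, *Ccr6* and *Mmp9* are as high or higher in adults, *Sirpa* overlaps between the young groups, and *Pdlim1*, *Cd209d*, *Lmo1* and *Alox5* are highest in young TOM+ cDC2.

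Genes associated with other antigen-presenting cells that share ILC3 genes were taken as a list of their own. Of 19 tested, 3 (15.8%) were called, where 1.18% of all tested genes were. All 3 were higher in TOM- DC2 (4 with the block), and the median was 0.43. The 3 include *Col17a1*, which is counted again among the epithelial genes below. *Prdm16*, a zinc-finger transcription regulator best known from brown fat, had 0.66, 0.56 and 0.73 TPM in TOM+ cDC2 and 8.05, 7.11 and 9.03 TPM in TOM- DC2 (3.58 ± 0.23, edgeR adjusted p = 7.4e-06). The non-coding gene *5930403L14Rik*, which shares 5677 bases with *Prdm16*, went from 0.03 to 0.08 TPM to 2.82 to 4.53 TPM, and since counting used no strand the 2 are not independent. *Aire*, the thymic autoimmune regulator, had 0.95, 0.52 and 0.77 TPM against 1.75, 1.27 and 2.12 TPM (1.21 ± 0.39, edgeR adjusted p = 0.22, and 0.012 with the block). *Itgb8*, an integrin gene that activates TGF-β, had at most 6 counts in any young library.

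Structural genes of epithelia included the gene with the smallest adjusted p. *Col17a1* (chr19:47646341-47692042, GRCm38), which encodes a transmembrane collagen of hemidesmosomes, had 105, 53 and 88 counts in TOM+ cDC2 and 1990, 2099 and 3569 in TOM- DC2. Its level was 1.29 ± 0.371 TPM (SD, n = 3) against 41.3 ± 3.54 TPM, 31.7-fold higher in TOM- DC2 (log2 fold change 4.99 ± 0.16, edgeR adjusted p = 9.7e-09), and 2.14 to 2.60 TPM in adults. Keratin *Krt8* had 1.03, 0.85 and 0.80 TPM against 13.03, 11.6 and 11.2 TPM (3.70 ± 0.34, edgeR adjusted p = 8.7e-05). The groups did not overlap for either gene.

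The tight-junction gene *Cldn7* (4.19 ± 0.45, edgeR adjusted p = 0.00026) and *Pigr*, the receptor that carries IgA across epithelia (4.93 ± 0.47, edgeR adjusted p = 0.00033), made up the rest of the 4 epithelial genes called out of 32 tested, with *Cdh1* added by the block. Of the 4, all but *Pigr* are among the genes labelled by the study, so their share is not independent evidence. *Epcam* was at 3.67, 4.76 and 4.32 TPM and at 6.43, 7.57 and 8.01 TPM and was not called. *Krt19*, *Krt14*, *Cldn3*, *Cldn4*, *Esrp1* and *Dsp* had 0 reads in all 6 young libraries and were not tested. Over the 32 tested, 12.5% were called, where 1.18% of all genes were, and 23 estimates were higher in TOM- DC2, with a median of 0.43. Keratin *Krt28*, outside the list, had 0 counts in TOM+ cDC2 and 26, 28 and 57 in TOM- DC2, at least 38.1-fold higher against a floor of 3 counts over the group.

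**Figure D3:**
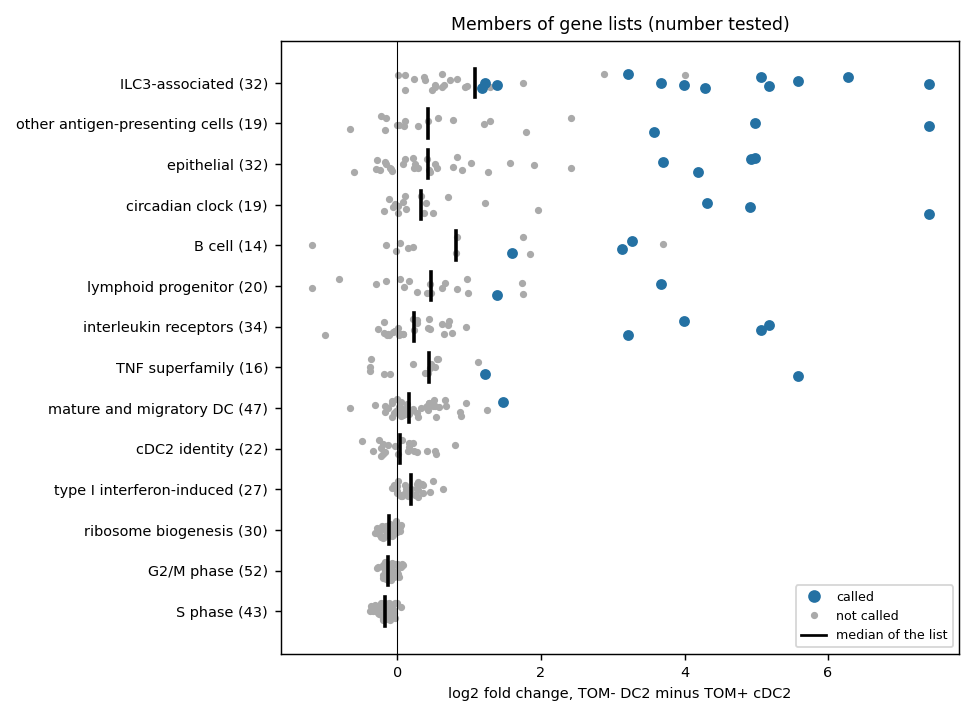
Log2 fold change, TOM- DC2 minus TOM+ cDC2, of the tested members of 14 gene lists, with the number tested in brackets, blue points for called genes, small grey points for the others and a black bar at the median of each list. All 32 ILC3-associated genes lie above 0 with a median of 1.08, cDC2 identity is centred at 0.03, and S-phase, G2/M and ribosome biogenesis genes sit just below 0 with no gene called.

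Genes of cytokines and their receptors were called at shares of 3.85% to 12.5% per list, where 1.18% of all tested genes were called. In lists this short 1 call alone gives a share above 1.18%. All calls in these lists but *Tnfrsf25* are among the genes labelled by the study, so the shares are not independent evidence. Of 26 interleukin and growth factor genes, 1 was called: *Il23a*, the p19 subunit of IL-23, with 0.41, 0.08 and 0.44 TPM in TOM+ cDC2 and 5.40, 6.50 and 11.3 TPM in TOM- DC2 (4.50 ± 0.51, edgeR adjusted p = 0.00041). The abundant *Il1b*, at 2563 to 3492 TPM, and *Tgfb1*, at 219 to 291 TPM over the 6 libraries, were not called. Among 34 interleukin receptors 4 (11.8%) were called, the *Il1r1*, *Il17re*, *Il2rb* and *Il18r1* already described. Calls were made for 2 of 16 TNF ligands (12.5%), *Tnfsf11* and *Lta*, and for 1 of 21 TNF receptors (4.76%), *Tnfrsf25*, the death receptor DR3 (0.06 to 0.27 TPM against 3.06 to 4.49 TPM, 4.40 ± 0.47, edgeR adjusted p = 0.00026). *Tnfrsf9* (4-1BB) was at 2.73, 2.15 and 1.74 TPM and at 4.40, 6.37 and 5.30 TPM, a difference of 1.25 ± 0.41 that was not called (edgeR adjusted p = 0.25) but was called with the block (4.5e-05) and in the fit of only the 6 young libraries.

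Chemokine genes gave 1 call among 25 (4%), where 1.18% of all tested genes were called. In lists this short 1 call alone gives a share above 1.18%. The call was *Cx3cl1*, which encodes the membrane-bound chemokine fractalkine and, like *Ccr6* below, is among the genes labelled by the study. It had 0.50, 0.48 and 0.70 TPM in TOM+ cDC2 and 2.44, 5.30 and 4.67 TPM in TOM- DC2 (2.87 ± 0.33, edgeR adjusted p = 0.00045). Of 20 chemokine receptors *Ccr6* was called (5%). *Ccr7*, which guides dendritic cells to lymph nodes, was not, at 311, 287 and 322 TPM against 365, 393 and 504 TPM (0.43 ± 0.16, edgeR adjusted p = 0.36, and 7.4e-06 with the block). The median of the 47 genes of mature and migratory dendritic cells was 0.16, with 36 estimates higher in TOM- DC2. Of the 47, 5 passed the adjusted p, all higher in TOM- DC2. With the block 19 (40.4%) passed as higher in TOM- DC2 and 2 (4.26%) as higher in TOM+ cDC2, where 6.71% and 5.12% of all tested genes did. Of the 47, 1 (2.13%) was called, *Serpinb6b*, an inhibitor of proteases (4.93, 4.87 and 6.55 TPM against 16.1, 16.2 and 15.4 TPM).

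Lipid mediator and matrix genes included calls in TOM- DC2. *Ptges* makes prostaglandin E2 and *Ptger2* is one of its receptors, and both were called (3.64 ± 0.46 and 3.17 ± 0.43, edgeR adjusted p = 0.0021 and 0.0015). They were 2 of 25 genes of prostaglandins and leukotrienes (8%), where 1.18% of all tested genes were called. Both, and *Mmp9* below, are among the genes labelled by the study, so the shares of their lists are not independent evidence. Their levels stayed low, with *Ptges* at 0.03 to 0.13 TPM against 1.08 to 1.60 TPM and *Ptger2* at 0.11 to 0.29 TPM against 1.36 to 1.97 TPM. *Mmp9*, a gelatinase, had 0.17, 0.06 and 0.32 TPM in TOM+ cDC2 and 12.9, 7.90 and 14.7 TPM in TOM- DC2 (5.86 ± 0.59, edgeR adjusted p = 0.00017), and 48.5, 34.7 and 107 TPM in adults. The metalloproteinase genes *Mmp23* (3.42 to 6.70 TPM against 12.5 to 15.2 TPM) and *Adam12* were the other calls among 28 matrix proteases and inhibitors (10.7% called). *Adam12* had 1 count in all of TOM+ cDC2 and 195 in TOM- DC2, a ratio of 200.8 with a 95% counting interval of 35.6 to 7970.2 (Clopper-Pearson, counting error only).

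The endosomal receptor gene *Tlr12* was among the genes with the smallest adjusted p after *Col17a1*. It had 25, 42 and 67 counts in TOM+ cDC2 and 714, 547 and 1127 in TOM- DC2, or 1.28 ± 0.533 TPM (SD, n = 3) against 23.6 ± 4.74 TPM (4.17 ± 0.27, edgeR adjusted p = 7.4e-06). It was the only call among 21 Toll-like receptor genes and their partners (4.76%), where 1.18% of all tested genes were called. It was also the only call among 17 genes of cDC1 (5.88%), a class that is known for *Tlr12*. *Tlr12* is among the genes labelled by the study, and in lists this short 1 call alone gives a share above 1.18%. A second cDC1 gene, *Irf8*, passed the adjusted p below the fold. This transcription factor gene was at 20.3, 26.45 and 24.2 TPM in TOM+ cDC2 and at 44.2, 39.1 and 41.3 TPM in TOM- DC2 (0.77 ± 0.11, edgeR adjusted p = 0.0027), with no overlap of the groups. Over the 17 cDC1 genes 6 estimates were higher in TOM- DC2 and 11 in TOM+ cDC2, and *Xcr1* (2.61 to 3.79 TPM) and *Batf3* (152 to 167 TPM) overlapped between the groups.

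Clock genes were listed because *Nr1d1* was among the strongest calls. *Nr1d1* encodes REV-ERBα, a nuclear receptor that represses clock and metabolic genes. It had 0.76, 0.26 and 0.55 TPM in TOM+ cDC2 and 10.1, 9.05 and 14.1 TPM in TOM- DC2 (4.31 ± 0.30, edgeR adjusted p = 8.8e-06), with adults at 0.19 to 0.40 TPM. *Thra*, the neighbour that shares 1075 bases with it, was not called (0.86 to 0.95 TPM against 1.06 to 1.74 TPM). Of 19 clock genes 3 (15.8%) were called, where 1.18% of all tested genes were, and the median was 0.33. The 3 include *Nr1d1* itself, which prompted the list, and *Npas2*, a partner of the core clock (4.91 ± 0.50, edgeR adjusted p = 0.00018). The core genes *Arntl*, *Clock* and *Per1* were not called, with *Per1* at 45.7, 44.3 and 49.9 TPM and at 39.4, 42.5 and 60.0 TPM.

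Promoters of 3 called genes are printed because they hold TAGGTCA, letters that REV-ERBα can bind, in the 250 bases before to 50 after a RefSeq start (GRCm38.p6). Capitals mark the match on either strand. It lies 39 bases before the start in *Cldn7* (chr11:69964529-69964828, plus strand), 225 before in *Krt8* (chr15:102004293-102004592, minus strand) and 43 before in *Ccr6* (chr17:8235793-8236092, plus strand).
Cldn7: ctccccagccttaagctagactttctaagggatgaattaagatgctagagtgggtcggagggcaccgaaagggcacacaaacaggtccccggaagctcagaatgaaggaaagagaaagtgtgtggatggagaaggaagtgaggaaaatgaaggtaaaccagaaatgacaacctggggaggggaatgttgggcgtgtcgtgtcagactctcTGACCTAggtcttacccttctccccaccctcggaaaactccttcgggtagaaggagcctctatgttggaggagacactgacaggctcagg
Krt8: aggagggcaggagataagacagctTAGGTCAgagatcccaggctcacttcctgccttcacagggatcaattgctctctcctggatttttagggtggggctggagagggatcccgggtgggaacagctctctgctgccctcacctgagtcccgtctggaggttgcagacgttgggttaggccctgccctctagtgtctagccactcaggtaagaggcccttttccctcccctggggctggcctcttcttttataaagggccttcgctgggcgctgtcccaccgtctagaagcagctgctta
Ccr6: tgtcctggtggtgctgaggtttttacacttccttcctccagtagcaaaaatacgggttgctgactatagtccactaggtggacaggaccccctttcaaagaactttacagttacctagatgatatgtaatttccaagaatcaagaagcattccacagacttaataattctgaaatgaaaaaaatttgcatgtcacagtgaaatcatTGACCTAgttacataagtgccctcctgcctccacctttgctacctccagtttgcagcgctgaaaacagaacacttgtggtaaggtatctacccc

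The match was found in 4 of 112 genes called higher in TOM- DC2 that have a promoter in the table (3.57%), the fourth being *Pglyrp2*, and in 254 of 10695 tested genes (2.37%). Over all 32851 promoters the share was 2.61%. These shares are close, and 11 sets of letters were searched in all. The shorter AGGTCA, which is part of TAGGTCA, was in 15.2% of the called and 15.2% of the tested genes with a promoter, and in 16.3% of all promoters.

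Markers of other lymphocytes included called genes, at shares above the 1.18% of all tested genes. In lists this short 1 call alone gives such a share, and *Fcer2a*, *Gata3* and *Tcf7* are among the genes labelled by the study. Of 14 B cell genes 3 (21.4%) were called: *Fcer2a*, the low-affinity IgE receptor CD23, with 0.70, 0.75 and 0.79 TPM against 8.36, 6.91 and 5.94 TPM (3.27 ± 0.22, edgeR adjusted p = 7.6e-06), the kinase gene *Blk* with 0.63, 0.12 and 1.06 TPM against 5.93, 4.38 and 7.42 TPM, and *Ms4a1* (CD20) with 2.56, 2.04 and 2.77 TPM against 10.4, 6.02 and 6.99 TPM. The defining gene *Pax5* had 1 count in the 6 libraries together. Of 16 T cell genes 1 (6.25%) was called, 3 with the block. It was *Cd247*, the CD3ζ signalling chain, with 0.28, 0.37 and 0.25 TPM against 7.25, 4.75 and 7.88 TPM (4.48 ± 0.37, edgeR adjusted p = 4.9e-05). *Cd3e* had 2, 18 and 4 counts in TOM+ cDC2 and 0, 23 and 5 in TOM- DC2. Of 20 genes of lymphoid progenitors 2 (10%), *Gata3* and *Tcf7*, were called, and *Rag1*, *Rag2* and *Dntt* had 0 reads in every young library.

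Markers of further cell types were summed per library. Summed macrophage markers were 233 to 288 TPM in TOM+ cDC2 and 370 to 434 TPM in TOM- DC2. Without the block 0 of 16 genes were called by edgeR (11 at an unadjusted p under 0.05, 0 called by DESeq2 or limma). With the block 10 (62.5%) passed the adjusted p as higher in TOM- DC2, where 6.71% of all tested genes did, for example *C1qb* (35.8, 50.6 and 47.7 TPM against 64.6, 78.3 and 77.1 TPM). Another 2 (12.5%) passed with the block as higher in TOM+ cDC2, where 5.12% of all tested genes did. They were *Timd4*, which was called, and *Cd163*, a haemoglobin scavenger receptor gene, at 5.01, 3.48 and 4.54 TPM against 2.13, 2.46 and 2.27 TPM. *Cd163* also passed without the block, below the fold (edgeR adjusted p = 0.026). T cell markers summed to 31.7 to 36.4 TPM against 51.0 to 54.6 TPM. NK cell and ILC1 markers summed to 553 to 654 TPM against 691 to 743 TPM, made up mainly of *Ccl5* and *Klrd1*. *Ccl5* was at 253, 280 and 210 TPM against 378, 425 and 397 TPM. *Klrk1* went the other way, at 58.5, 64.9 and 63.2 TPM against 43.2, 46.8 and 37.0 TPM. Of the 12 tested, 9 estimates were higher in TOM- DC2 and 3 in TOM+ cDC2. Mast cell and basophil markers summed to 6.55 to 7.83 TPM against 9.97 to 11.6 TPM, mostly *Hdc*, and 8 of the 12 listed had 0 reads in every young library. Summed monocyte markers were lower in TOM- DC2, at 2633 to 2772 TPM against 2270 to 2427 TPM, a sum made up mainly of abundant genes such as *Plac8* and *S100a4*, while 10 of the 17 estimates were higher in TOM- DC2 with a median of 0.10. B cell markers overlapped, at 182 to 251 TPM against 200 to 292 TPM. Neutrophil genes summed to 6.74, 6.12 and 6.00 TPM against 61.6, 14.2 and 21.0 TPM, and without *Mmp9* to 6.57, 6.06 and 5.68 TPM against 48.7, 6.32 and 6.33 TPM. Erythroid genes, mostly haemoglobins whose reads are shared between near-identical copies, summed to 150.2, 170.2 and 106 TPM against 1609.8, 236 and 130.3 TPM. The neutrophil excess without *Mmp9* was thus in the TOM- library numbered 81, which also had by far the highest erythroid sum. The erythroid sum was higher in the TOM- library of each number. Of 10 erythroid genes tested 9 estimates were higher in TOM- DC2, with a median of 0.91 and 0 called by edgeR, DESeq2 or limma (3 at an unadjusted p under 0.05). Without both libraries numbered 81, an alternative chosen after seeing the data, 168 genes passed as called and TOM- DC2 was higher for 162, and 144 of the 170 calls were held. The part of RNA from macrophages or other cells in these differences was not tested.

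**Figure D4:**
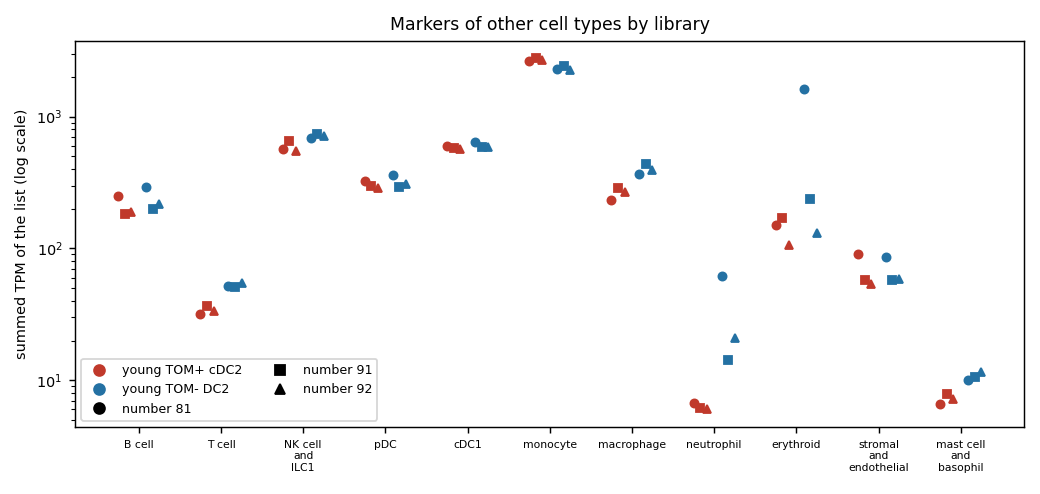
Summed TPM of marker lists of 11 other cell types (y axis, log scale) in each young library, red for TOM+ cDC2 and blue for TOM- DC2, with marker shape giving the number of the library. Macrophage, T cell, NK cell, neutrophil and mast cell sums are higher and monocyte sums lower in all 3 TOM- libraries, and the TOM- library numbered 81 stands alone for neutrophil (61.6 TPM) and erythroid (1609.8 TPM) genes. Without *Mmp9* (not drawn) the neutrophil sums of the TOM- libraries numbered 91 and 92, 6.32 and 6.33 TPM, lie within the TOM+ range of 5.68 to 6.57 TPM.

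Among called genes 17 averaged 20 TPM or more in TOM- DC2, and 5 of these are named here after their values were seen. *Serpinb1a*, an inhibitor of neutrophil proteases, was at 18.3, 19.3 and 17.4 TPM in TOM+ cDC2 and at 54.2, 49.96 and 57.0 TPM in TOM- DC2 (1.51 ± 0.10, edgeR adjusted p = 7.4e-06), and adults had 7.47 to 8.07 TPM. *Nccrp1* was at 19.8, 33.0 and 24.4 TPM against 49.99, 64.0 and 76.1 TPM (1.27 ± 0.20, edgeR adjusted p = 0.0042). *Phgdh*, the first enzyme of serine synthesis, was at 14.9, 13.2 and 16.6 TPM against 44.5, 34.8 and 49.0 TPM (1.52 ± 0.21, edgeR adjusted p = 0.0015). No library of one group overlapped the other for these 3 genes. *Cdh17*, a cadherin gene of the intestine, was at 11.6 to 19.2 TPM against 26.7 to 40.4 TPM, and *Prnp*, the prion protein gene, was at 11.9 to 12.0 TPM against 23.4 to 35.1 TPM, below the 59.2 to 70.7 TPM of adults.

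The rest of the largest differences included single genes of transport, signalling and matrix. Whole families were counted after these values were seen. Of 258 solute carrier genes 4 (1.55%) were called, with a median of 0.02, where 1.18% of all tested genes were called. Potassium channels had 2 of 38 called (5.26%, median 0.03) and collagens 3 of 27 (11.1%, median -0.15). *Slc28a3*, a nucleoside transporter gene, had 2, 0 and 4 counts in TOM+ cDC2 and 169, 217 and 403 in TOM- DC2 (6.94 ± 0.43, edgeR adjusted p = 2.3e-05). The potassium channel gene *Kcnk1* had 2 counts in all of TOM+ cDC2 and 368 in TOM- DC2 (ratio 189.4, 95% counting interval 52.1 to 1570.2). Similar ratios were found for *2310007L24Rik* (141.1, 47.9 to 687) and for the forkhead factor gene *Foxs1* (116.3, 39.5 to 567). These 4 genes were at 0 TPM in all 3 adult libraries.

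*Plekhs1* (5.82 ± 0.52), the CBP/p300 partner *Cited4* (4.90 ± 0.52), *Vsig2* (4.60 ± 0.40) and the collagen gene *Col9a3* (4.22 ± 0.45) were further genes of the naming rule, with edgeR adjusted p = 7.9e-05, 0.00024, 6.8e-05 and 0.00026. Of the 167, 7 had 0 counts in all 3 TOM+ libraries. *Serinc2* had 30, 35 and 74 counts in TOM- DC2, at least 47.7-fold higher against the floor of 3 counts over the group, and *Kl*, which encodes the FGF23 co-receptor klotho, had 35, 15 and 35, at least 29.2-fold higher. Against adult TOM+ cDC2, all 3 adult libraries lay below all 3 TOM- libraries in TPM for 126 of the 167 genes and above them for 14, and 27 overlapped.

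Few genes were called higher in TOM+ cDC2, although 751 (5.12%) passed the adjusted p with the block in this direction without regard to fold. *Pdlim1*, a cytoskeletal adaptor gene, was at 8.05, 11.9 and 10.9 TPM in TOM+ cDC2 and at 2.63, 4.19 and 4.14 TPM in TOM- DC2 (log2 fold change, TOM+ minus TOM-, 1.89 ± 0.30, edgeR adjusted p = 0.0051). *Lmo1*, a LIM-domain transcription cofactor gene, was at 7.49, 9.96 and 7.89 TPM against 3.05, 3.29 and 3.34 TPM (1.41 ± 0.25, edgeR adjusted p = 0.0095). *Cd209d*, a C-type lectin gene, was at 12.5, 25.9 and 27.4 TPM against 3.68, 10.1 and 5.35 TPM (1.76 ± 0.36, edgeR adjusted p = 0.026). The groups did not overlap for any of the 3, but *Cd209d* belongs to a family of near-identical genes, which leaves its counts uncertain. *Cd209d* lost its call without TOM+ number 91 or 92 or TOM- number 81 or 92, and *Lmo1* without TOM+ number 91.

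Of the genes with the smallest adjusted p in this direction, *Krt80* (0.49 ± 0.08, edgeR adjusted p = 0.004), *Mboat1* (0.70 ± 0.11, edgeR adjusted p = 0.0041) and *Oxct1*, an enzyme gene of ketone body use (0.66 ± 0.13, edgeR adjusted p = 0.018), passed the test below the fold. *Alox5*, the first enzyme of leukotriene synthesis, had 26, 61 and 39 counts in TOM+ cDC2 and 8, 6 and 2 in TOM- DC2 (2.88 ± 0.74, edgeR adjusted p = 0.094, and 8.5e-05 with the block). It was also called by DESeq2 with apeglm (adjusted p = 0.014), with no filter on low counts and without both libraries numbered 81. With the block *Timd4* and *Dab2*, an endocytic adaptor gene, were called too, named here after their values were seen. *Timd4*, a receptor for phosphatidylserine, was at 7.59, 12.2 and 16.1 TPM against 3.94, 6.52 and 6.72 TPM, and *Dab2* at 9.40, 15.2 and 15.0 TPM against 5.78, 7.10 and 6.72 TPM. For both genes the TOM+ library exceeded the TOM- library of the same number each time.

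Estimates for cell cycle genes lay slightly toward TOM+ cDC2 in most members. Of 43 S-phase genes 42 had estimates higher in TOM+ cDC2, with a median log2 fold change (TOM+ minus TOM-) of 0.17, against 0.00 over all tested genes, where 50.3% of estimates were higher in TOM+ cDC2. Without the block 0 of the 43 passed the adjusted p by edgeR and 12 had an unadjusted p under 0.05, and DESeq2 and limma called 0. With the block 19 of 43 (44.2%) passed the adjusted p, all higher in TOM+ cDC2, where 5.12% of all tested genes did. *Mcm6*, a subunit of the replicative helicase, was at 286, 241 and 221 TPM against 254, 204 and 206 TPM (0.20 ± 0.09, edgeR adjusted p = 0.55, and 0.0018 with the block). *Pcna*, the sliding clamp of replication, was at 346, 395 and 380 TPM and at 346, 396 and 374 TPM and did not pass either fit.

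Of 52 G2/M genes 46 had estimates higher in TOM+ cDC2 (median 0.12, 1 at an unadjusted p under 0.05, 10 or 19.2% passing with the block). Of 30 ribosome biogenesis genes 27 did (median 0.12, 3 at an unadjusted p under 0.05, 11 or 36.7% passing with the block). Over all tested genes 5.12% passed with the block in this direction. In each of the numbers 81, 91 and 92 the S-phase median was higher in the TOM+ library, by 0.21, 0.12 and 0.17 on the log2 scale, and the G2/M median by 0.13, 0.10 and 0.11. Genes induced by type I interferon went the other way, with 22 of 27 estimates higher in TOM- DC2, a median of 0.20 and 0 called (7 at an unadjusted p under 0.05 without the block, 0 called by DESeq2 or limma). With the block 9 (33.3%) passed the adjusted p as higher in TOM- DC2, where 6.71% of all tested genes did. *Isg15*, a ubiquitin-like protein gene of that list, was at 101, 78.3 and 88.3 TPM in TOM+ cDC2 and at 110, 119 and 122 TPM in TOM- DC2 (0.35 ± 0.11, edgeR adjusted p = 0.20, and 0.0043 with the block).

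**Figure D5:**
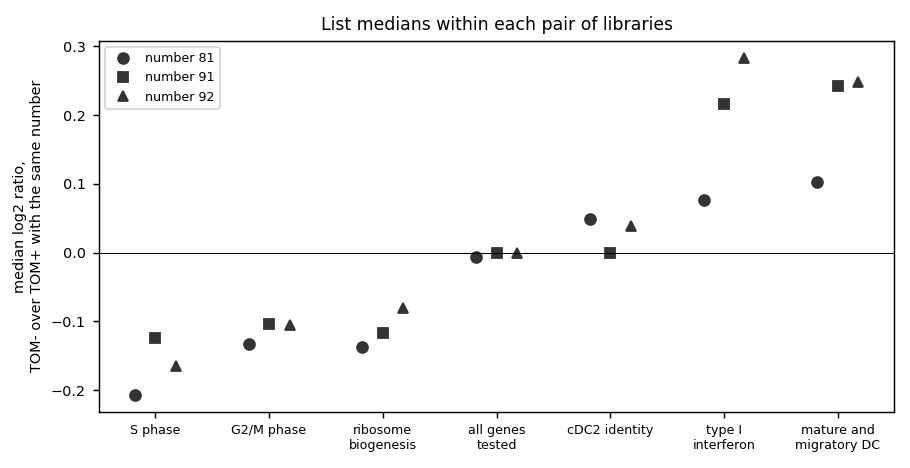
Median over each gene list of the log2 ratio of normalized counts, TOM- over TOM+ library with the same number (y axis), for 7 lists on the x axis, with 1 marker for each of the numbers 81, 91 and 92. S-phase, G2/M and ribosome biogenesis medians are below 0 in all 3 numbers, the median over all tested genes is close to 0, and type I interferon and mature dendritic cell medians are above 0 in all 3.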

How the data were processed

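Splenic dendritic cells were profiled by mRNA sequencing (SMART-seq v4) in 9 libraries, of which the 6 young ones were compared. The authors aligned reads to mm10 with STAR, and the deposited counts are its unnormalized reads per gene, used in the unstranded column without its 4 summary lines (26.1% to 29.1% of all reads in the young libraries). The deposited RSEM expected counts were rounded for an alternative, and the deposited TPM, computed by the authors with RSEM, give levels. The deposited FPKM were not used.

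Genes averaging 1 count or more were fitted in edgeR 4.0.16 (R 4.3.3), a quasi-likelihood model with TMM scaling of all 9 libraries in 3 groups. P-values were adjusted by the Benjamini-Hochberg method, and called genes had an adjusted p under 0.05 and a log2 fold change beyond 1. DESeq2 1.42.0 with apeglm 1.24.0, tools the authors used, and limma 3.58.1 on log2(TPM + 1) or log2(TPM + 0.1) served as alternatives, and the edgeR fits were tested on simulated data.

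Members and lists were chosen with earlier results of these data known. Named genes were the 20 called genes with the largest fold, an average of at least 50 counts in the young libraries and no overlap of groups, every call and the 5 smallest adjusted p higher in TOM+ cDC2, up to 4 genes of each list, and the genes labelled by the study or in the sort, and the text describes a part of them. Some genes are not reported here by name or value. They stay in the tests, counts and list totals. The lists were counted whether or not the report describes them: sort gate and reporter (1 of 15 called), NK cell and ILC1 (2 of 12 called), ILC2 (2 of 8), plasmacytoid cells (0 of 16), monocytes (0 of 17), mast cells and basophils (0 of 3), stromal and endothelial cells (1 of 18), immediate early genes (0 of 22) and sex-linked genes (0 of 4). Over all tested genes 1.18% were called. Of the lists with 0 called by edgeR, the plasmacytoid list had 8 genes, monocytes 7, mast cells 1, immediate early genes 1 and sex-linked genes 1 at an unadjusted p under 0.05, with 0 called by DESeq2 or limma on log2(TPM + 1).

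The number of each library comes from its deposited name, and its meaning is not given in the sources used here. Same-numbered libraries of the young groups deviated together from the group means (correlations 0.742, 0.488 and 0.504 over 10216 genes), so the number was taken as a pairing. Counts of 35 called genes may include reads of an overlapping gene, since no strand was used. Positions and promoters come from RefSeq tables of GRCm38.p6, the assembly of mm10, matched by symbol or synonym for 170 of 170 called genes. Library totals limit the precision, and floors of 3 counts and 95% intervals cover counting error only. Figures were drawn with matplotlib 3.10.9.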

Additional observations from a re-analysis of the deposited data

How the results depend on the processing

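The count of genes called was 170, of which 167 were higher in TOM- DC2 and 3 in TOM+ cDC2. The replicate block gave 341, 315 and 26, and, leaving out a pair as well, 246 to 337 (327 without number 91), 228 to 308 (307) and 18 to 29 (20). The block ended none of the 170 calls. Leaving out 1 library without the block gave 126 to 176, 124 to 167 and 2 to 9, the 9 without TOM+ replicate 1 (number 81) and 5 without TOM- replicate 2 (number 91). With no filter on low counts 5 genes were called higher in TOM+ cDC2, without both libraries numbered 81 (added after seeing the data) 6, and by adjusted p with no fold 18. DESeq2 with apeglm called 161, limma on log2(TPM + 1) 121 and on log2(TPM + 0.1) 150, and RSEM expected counts 161, and of the 170 calls 148, 113, 135 and 156 held. With 1 library left out 124 to 151 of the 170 held. No called gene changed direction under any of these alternatives. *Lmo1* was not called by limma on log2(TPM + 0.1), *Mmp9* was not called by DESeq2 with apeglm, and *Cd209d* and *Ccr6* by neither limma fit nor with only the 6 young libraries. The cause of these differences was not tested. Genes with few counts in TOM+ cDC2 have folds that depth leaves wide.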
